A study of Mus musculus with 4 samples.

Results

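Mpo, Elane, Prtn3, Ctsg and Ms4a3, 5 genes of the primary granule program of neutrophil progenitors, were followed among the 13978 gene symbols counted in single mouse blood progenitors. They were chosen by name, and all 5 have a row in the count matrix. In the B-ALL environment, wild-type CD45.1 mice had received 150000 primary tumor cells of B-cell acute lymphoblastic leukemia (B-ALL) through the tail vein, and their marrow was taken 3 weeks later. The tumor cells came from the lymph node of a single leukemic animal, LN768, which was Cd45.2+/+ Ebf1+/- Pax5+/-, that is, heterozygous for a pair of genes that direct B cell development. In the PBS control, wild-type CD45.1 mice had received PBS, a buffer without cells. In both groups KIT+Lin-CD45.2-CD45.1+ bone marrow cells were sorted, which are host cells with the receptor for stem cell factor and without markers of mature lineages. The labels of all 4 samples also name LN768 as a cell line, although the sorted cells are those of the hosts. The groups are called B-ALL hosts and PBS hosts here, and the comparison addresses how these genes differ in normal progenitors that share a marrow with leukemia.

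Primary (azurophil) granules are the first storage granules that a developing neutrophil fills, at the promyelocyte stage, and their contents kill microbes in the phagosome or outside the cell. Mpo encodes myeloperoxidase, a haem enzyme that makes hypochlorous acid. Elane (neutrophil elastase), Prtn3 (proteinase 3) and Ctsg (cathepsin G) encode serine proteases that are stored in active form after cathepsin C has removed a short activation peptide. Ms4a3 encodes a membrane protein of the MS4A family that is made in granulocyte-monocyte progenitors and is used to mark their descendants. The genes are transcribed in progenitors, while the mature neutrophil carries the finished proteins.

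On the mm10 (GRCm38) genome, Prtn3 (chr10:79874476-79883174, plus strand) and Elane (chr10:79886247-79888215, plus strand) are direct neighbours, with 3072 bases and 0 annotated genes between them. Mpo lies at chr11:87793581-87804413 on the plus strand, Ctsg at chr14:56099881-56102574 on the minus strand and Ms4a3 at chr19:11629496-11640851 on the minus strand, by the GENCODE annotation. Their promoters are shown because the results below turn on how genes of a shared program, and the neighbours Elane and Prtn3 among them, differ from each other. Each sequence comes from the 250 bases before the RefSeq start (GRCm38.p6), read along the strand of the gene. It is the longest stretch there that lies outside every annotated exon, and capitals mark matches to the motifs named below. The RefSeq starts of Mpo, at 87793784, Elane, at 79886312, and Prtn3, at 79879667, lie inside their GENCODE spans. The stretch printed for Prtn3 lies inside its span as well.
Mpo, chr11:87793534-87793580, plus strand: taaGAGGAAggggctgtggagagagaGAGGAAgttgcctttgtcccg
Elane, chr10:79886062-79886246, plus strand: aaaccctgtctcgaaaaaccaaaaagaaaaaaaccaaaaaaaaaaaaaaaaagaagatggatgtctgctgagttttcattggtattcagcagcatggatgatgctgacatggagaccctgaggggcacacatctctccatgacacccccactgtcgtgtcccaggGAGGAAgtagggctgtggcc
Prtn3, chr10:79879417-79879613, plus strand: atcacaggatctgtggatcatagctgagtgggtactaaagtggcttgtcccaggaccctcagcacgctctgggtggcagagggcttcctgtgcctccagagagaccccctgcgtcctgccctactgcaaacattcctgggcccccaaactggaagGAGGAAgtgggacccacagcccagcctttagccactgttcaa
Ctsg, chr14:56102575-56102824, minus strand: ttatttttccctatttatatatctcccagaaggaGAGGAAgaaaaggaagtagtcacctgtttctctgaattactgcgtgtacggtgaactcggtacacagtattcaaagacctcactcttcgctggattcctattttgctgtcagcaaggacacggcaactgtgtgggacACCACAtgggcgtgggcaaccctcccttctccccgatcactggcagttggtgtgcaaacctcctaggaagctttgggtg
Ms4a3, chr19:11640852-11641101, minus strand: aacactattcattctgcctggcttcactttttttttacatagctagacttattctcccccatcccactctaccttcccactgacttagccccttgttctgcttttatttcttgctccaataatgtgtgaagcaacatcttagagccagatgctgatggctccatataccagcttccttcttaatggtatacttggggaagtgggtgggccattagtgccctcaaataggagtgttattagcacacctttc

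Both strands of the 250 bases before each start were searched for short letters known from sites of 4 transcription factor families of myeloid cells. The PU.1 letters GAGGAA were found before Mpo, Elane, Prtn3 and Ctsg, and in 23.3% of all 32851 promoters of the same length. The MYB letters TAACNG were found before the RefSeq starts of Mpo and Elane, but inside their GENCODE spans and outside the stretches printed. They were found in 19.8% of all promoters. The RUNX letters TGTGGT were found before Ctsg, where they read ACCACA on the strand printed, and in 14.05%. The C/EBP letters TTGCNNAA were found before none of the 5 genes and in 9.56% of all promoters, and Ms4a3 had no match to any motif. In Elane and Prtn3 the PU.1 letters lay 85 to 80 and 95 to 90 bases before the start. No match overlapped another, and a match describes letters in this window, not a bound site.

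There were 5882 cells with 76059014 unique molecular identifiers (UMIs, 1 for each RNA molecule captured) from B-ALL hosts and 5882 cells with 68391214 UMIs from PBS hosts. The median cell had 10458 UMIs in B-ALL hosts (357 to 56671, with 179 cells under 3000) and 10189 UMIs in PBS hosts (3070 to 48408, with 0 cells under 3000). Mitochondrial genes took 5.14% of UMIs in B-ALL hosts and 3.56% in PBS hosts, and 18 cell barcodes occurred in both groups. The labels name 2 samples in each group, but the cells carry no sample number. Each group is therefore a single value without replicates, no difference was tested, and all intervals are 95% intervals of counting error only. Levels are UMIs per 1000000 UMIs (CPM) after scaling, in which 1 UMI stands for 1 molecule whatever its length, and folds are B-ALL hosts over PBS hosts on the log2 scale.

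Over all cells, Mpo, Elane and Ctsg stood at least 1.5-fold lower in B-ALL hosts, which is 3 of the 5 genes, beside 8.07% of all genes. None of the 5 stood at least 1.5-fold higher, beside 12.6% of all genes. Ctsg had 874 CPM in B-ALL hosts and 1923 CPM in PBS hosts, a log2 fold of -1.14 (-1.15 to -1.12). Mpo had 1645 CPM in B-ALL hosts and 3078 CPM in PBS hosts (-0.90, -0.91 to -0.89). Elane had 1169 CPM in B-ALL hosts and 2050 CPM in PBS hosts (-0.81, -0.82 to -0.80). The peroxidase and 2 of the 3 proteases were thus the lower genes. Prtn3, the most abundant of the 5, had 3252 CPM in B-ALL hosts and 3457 CPM in PBS hosts (-0.09, -0.10 to -0.08). Ms4a3 had 341 CPM in B-ALL hosts and 347 CPM in PBS hosts (-0.02, -0.05 to 0.00). The makeup of the program differed accordingly, since Prtn3 gave 44.7% of the UMIs of the 5 genes in B-ALL hosts and 31.8% in PBS hosts.

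In these sums, fewer cells of a type and less RNA per cell cannot be told apart. The 5 genes summed to a log2 fold of -0.58. The sum was -0.32 when the cells of B-ALL hosts were weighted to the shares of PBS hosts in the 20 map clusters described below. With that weighting Prtn3 had a log2 fold of 0.13 and Ms4a3 one of 0.26, while Mpo (-0.62), Elane (-0.51) and Ctsg (-0.85) remained below 0.

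Free RNA in a droplet suspension gives UMIs to cells that do not make a gene. Its level was not measured directly, and the level in cells led by T cell genes was used as a reference. Cells were grouped into 20 clusters on the authors' map, which were named from marker genes that include none of the 5. Map cluster 19, led by the T cell genes Trbc1, Tcf7 and Il7r, had 32 cells from B-ALL hosts and 21 from PBS hosts. Its Mpo level was 65.2 CPM in B-ALL hosts and 225 CPM in PBS hosts, and its Elane level was 21.7 CPM in B-ALL hosts and 123 CPM in PBS hosts. Relative to the whole library, the 5 genes stood there at 1.86% to 3.96% in B-ALL hosts and at 6.03% to 8.77% in PBS hosts. The 30 UMIs of the 5 genes in this cluster of B-ALL hosts were 30% Mpo, 10% Elane, 46.7% Prtn3, 10% Ctsg and 3.33% Ms4a3, against 22.6%, 16.1%, 44.7%, 12.01% and 4.69% in the whole library of B-ALL hosts. In PBS hosts the 138 UMIs were 29.0% Mpo, 15.9% Elane, 29.7% Prtn3, 21.7% Ctsg and 3.62% Ms4a3, against 28.4%, 18.9%, 31.8%, 17.7% and 3.19% in the whole library of PBS hosts. In 10 clusters of HSC-like, erythroid-like, megakaryocyte-like and T cell gene-led cells, the share of cells with an Elane UMI was 8.04% to 22.4% in B-ALL hosts and 40.5% to 66.7% in PBS hosts. With each cell thinned to 3000 UMIs it was 1.99% to 6.67% in B-ALL hosts and 16.4% to 47.6% in PBS hosts. The highest share in B-ALL hosts before thinning was in the late erythroid-like cluster 16, the deepest map cluster, with a median of 22168 UMIs per cell. Elane there had 89.3 CPM in B-ALL hosts, above the T cell gene-led cells, and 95.4 CPM in PBS hosts, below them. By the threshold for high cells given below, Elane was high in 1 of 67 cells of this cluster in B-ALL hosts and 2 of 304 in PBS hosts. How far these cells carried the Elane level of cluster 16 was not tested. A level near that of the T cell gene-led cells of the same host group is not read as expression, and the part of free RNA in the low levels was not tested. In B-ALL hosts the levels of these T cell gene-led cells rest on 30 UMIs of the 5 genes together, 10% of them Elane. Above or below these levels is said without an interval. Subtracting the level of late erythroid-like cells of the same host group moved the summed fold over all cells to -0.54.

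**Figure D1:**
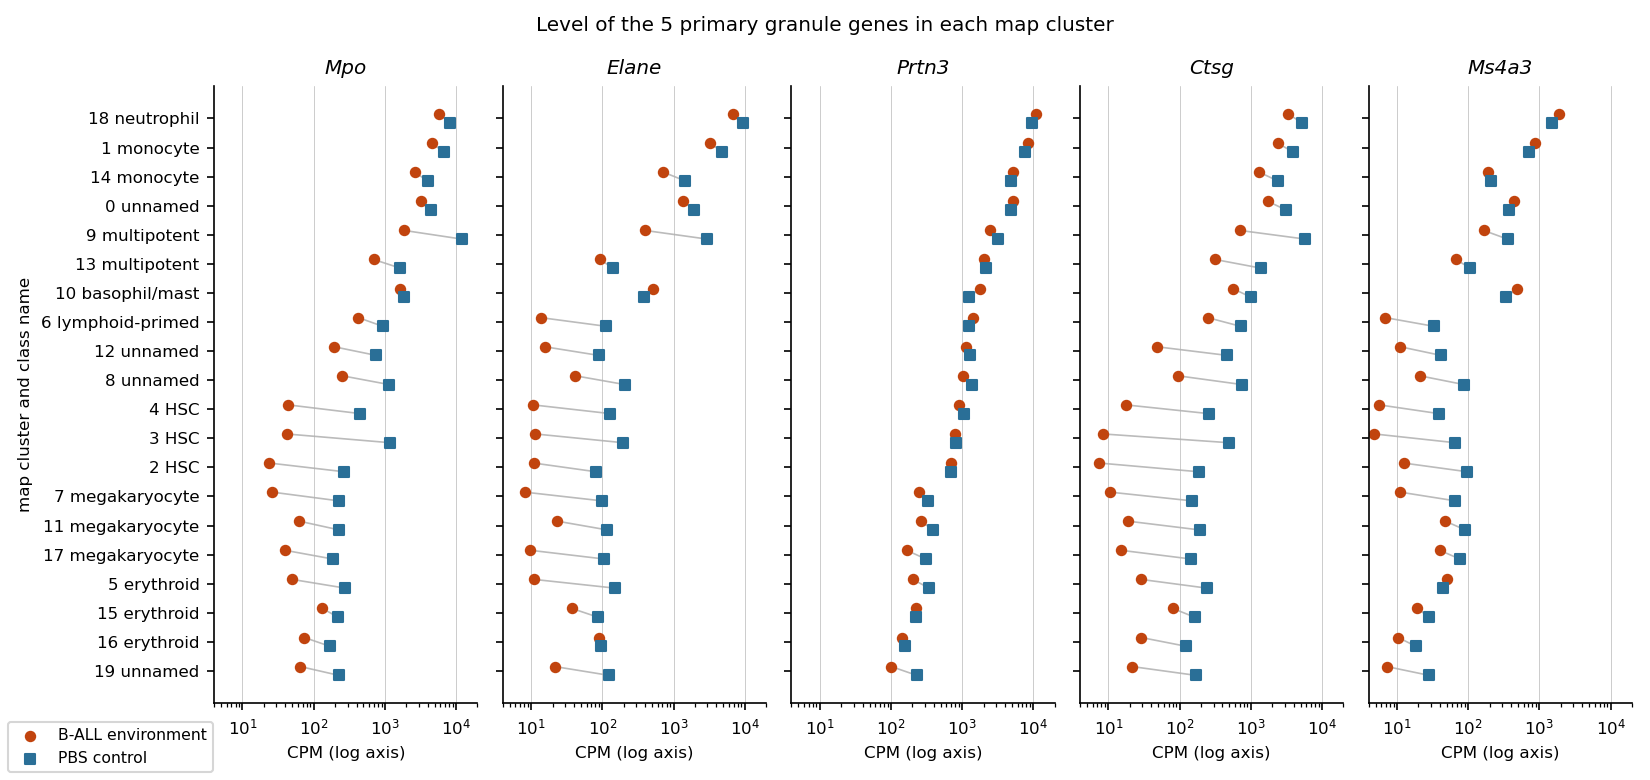
Level of each gene in CPM on a log axis (x) in each of 20 map clusters (y, with the class name), B-ALL environment as circles and PBS control as squares, each point the sum over the cells of a group. Mpo, Elane and Ctsg of the PBS control stay above those of the B-ALL environment in the lower rows, and Prtn3 lies close together in the HSC-like rows, which sum to 809 CPM for the B-ALL environment and 903 CPM for the PBS control, but apart in cluster 17, with 166 CPM for the B-ALL environment and 309 CPM for the PBS control.

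Prtn3 reached beyond the myeloid clusters in both groups. In HSC-like cells (map clusters 2, 3 and 4, named from stem cell markers such as Mecom, Hlf and Ly6a, 1125 cells from B-ALL hosts and 330 from PBS hosts), Prtn3 had 809 CPM in B-ALL hosts and 903 CPM in PBS hosts (log2 fold -0.16, -0.22 to -0.09). That was 24.9% of its library level in B-ALL hosts and 26.1% in PBS hosts, against 3.12% in the T cell gene-led cells of B-ALL hosts and 6.66% in those of PBS hosts. A Prtn3 UMI was found in 97.2% of HSC-like cells of B-ALL hosts and 97.6% of those of PBS hosts, and after thinning in 85.9% of those of B-ALL hosts and 88.8% of those of PBS hosts. In the T cell gene-led cluster the share was 25.0% in B-ALL hosts and 76.2% in PBS hosts, so the share alone separates the cell types less well in PBS hosts.

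The other 4 genes were low in HSC-like cells of B-ALL hosts. Mpo had 36.5 CPM in B-ALL hosts, not above its level in the T cell gene-led cells, and 435 CPM in PBS hosts, above it. By the threshold given below, Mpo was high in 4 of 1125 HSC-like cells of B-ALL hosts and 14 of 330 of PBS hosts. In PBS hosts the Mpo level before scaling ran from 266 CPM in cluster 2 to 1175 CPM in cluster 3, which had 37 cells. How far the high cells carried the Mpo level was not tested. Ctsg had 12.5 CPM in B-ALL hosts and 247 CPM in PBS hosts. Elane had 10.8 CPM in B-ALL hosts and 116 CPM in PBS hosts, and Ms4a3 had 7.75 CPM in B-ALL hosts and 63.5 CPM in PBS hosts. Prtn3 gave 92.3% of the UMIs of the 5 genes in HSC-like cells of B-ALL hosts and 51.2% in those of PBS hosts. The T cell gene-led cells stood at 1.86% to 3.96% of library levels in B-ALL hosts and 6.03% to 8.77% in PBS hosts. The part of free RNA in the gap between the HSC-like shares was not tested.

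Between the stem cell-like and the myeloid clusters, Prtn3 and Mpo were present where Elane and Ms4a3 were still low. In lymphoid-primed-like cells (map cluster 6, led by Dntt and including Flt3), Prtn3 had 1415 CPM in B-ALL hosts and 1229 CPM in PBS hosts. Mpo had 423 CPM there in B-ALL hosts and 937 CPM in PBS hosts. Elane had 13.7 CPM in B-ALL hosts and 114 CPM in PBS hosts, neither above the T cell gene-led cells. The Elane level of the T cell gene-led cells rests on few UMIs, so lower was not told from equal. In multipotent progenitor-like cells of map cluster 13 (571 cells from B-ALL hosts and 369 from PBS hosts), Prtn3 had 2016 CPM in B-ALL hosts and 2165 CPM in PBS hosts. Ctsg had 314 CPM in B-ALL hosts and 1401 CPM in PBS hosts (-2.16, -2.24 to -2.08), and Mpo had 694 CPM in B-ALL hosts and 1654 CPM in PBS hosts (-1.25, -1.31 to -1.19). In these cells Prtn3 was near equal between the groups while Ctsg and Mpo were well apart. Elane stayed low, at 91.4 CPM in B-ALL hosts and 144 CPM in PBS hosts.

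Basophil and mast cell-like cells (map cluster 10, led by Ms4a2 and including Gzmb and Cpa3, 159 cells from B-ALL hosts and 232 from PBS hosts) showed another pattern. Prtn3 had 1795 CPM in B-ALL hosts and 1239 CPM in PBS hosts (0.53, 0.45 to 0.61). Ms4a3 had 491 CPM in B-ALL hosts and 340 CPM in PBS hosts (0.53, 0.38 to 0.69), and Elane had 512 CPM in B-ALL hosts and 383 CPM in PBS hosts (0.42, 0.27 to 0.57). Ctsg was lower here too, with 559 CPM in B-ALL hosts and 1012 CPM in PBS hosts (-0.86, -0.97 to -0.74). Mpo was lower as well, with a log2 fold of -0.17. By the thresholds for high cells given below, Elane was high in only 19 of 159 cells of B-ALL hosts and 16 of 232 of PBS hosts. Prtn3 was high in 65 cells of B-ALL hosts and 61 of PBS hosts, and Ms4a3 in 69 and 59. How far the high cells carried these levels was not tested.

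The highest Elane, Prtn3 and Ms4a3 levels were in neutrophil progenitor-like cells, map cluster 18, with 297 cells from B-ALL hosts and 400 from PBS hosts. The name rests on 8 detected markers, among them Cebpe, a transcription factor of the promyelocyte stage, Trem3 and S100a8. Elane and Ms4a3 are also among the 10 leading genes of this cluster, and Elane and Mpo among those of cluster 1, on a map made from these same cells. That the genes are high in these clusters is therefore a description, and the comparison is between host groups within them. Cluster 18 held 51.2% of the Elane UMIs of B-ALL hosts and 45.4% of those of PBS hosts, but 28.6% of the Prtn3 UMIs of B-ALL hosts and 27.8% of those of PBS hosts.

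Within cluster 18 the 5 genes parted in direction. Ctsg had 3361 CPM in B-ALL hosts and 5268 CPM in PBS hosts (-0.65, -0.67 to -0.62). Mpo had 5741 CPM in B-ALL hosts and 8319 CPM in PBS hosts (-0.54, -0.55 to -0.52), and Elane had 6918 CPM in B-ALL hosts and 9383 CPM in PBS hosts (-0.44, -0.46 to -0.42). Prtn3 and Ms4a3 were the ones higher in B-ALL hosts. Prtn3 had 10762 CPM in B-ALL hosts and 9675 CPM in PBS hosts (0.15, 0.14 to 0.17), and Ms4a3 had 1902 CPM in B-ALL hosts and 1505 CPM in PBS hosts (0.34, 0.30 to 0.38). At least 1.5-fold lower was 1 of the 5, Ctsg, beside 7.41% of all genes in these cells, and at least 1.5-fold higher was none, beside 6.24%. Median depth in this cluster was 21561 UMIs per cell in B-ALL hosts and 16054 in PBS hosts, and the part of depth was not tested. When the class was drawn from values centred within each host group, from clusters that differed between the groups, Prtn3 had a log2 fold of -0.05 and Ms4a3 one of -0.15.

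The neighbours Elane and Prtn3 thus differed in opposite directions in the same cells. Summed over cluster 18 there were 0.64 Elane UMIs per Prtn3 UMI in B-ALL hosts and 0.97 in PBS hosts. There were 0.53 Mpo UMIs per Prtn3 UMI in B-ALL hosts and 0.86 in PBS hosts, and this ratio does not depend on how libraries are scaled. The log2 fold of Mpo minus that of Prtn3 was -0.69 (-0.71 to -0.66) in cluster 18, -0.73 in cluster 1, -0.70 in cluster 14 and -0.59 in cluster 0. It lay between -0.84 and -0.66 when the class was rebuilt from each group clustered alone, from centred values, from finer clusters or from cells with at least 2 Cebpe UMIs per 10000 UMIs.

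Cell by cell, all 297 cells of B-ALL hosts and all 400 of PBS hosts in cluster 18 had UMIs of Mpo, Elane, Prtn3 and Ms4a3. Mpo had a median of 56.0 UMIs per 10000 UMIs of the cell in B-ALL hosts (10th to 90th percentile 38.2 to 76.3) and 84.4 in PBS hosts (61.6 to 111). Ctsg had a median of 29.4 in B-ALL hosts (17.1 to 51.1) and 52.0 in PBS hosts (32.8 to 75.7). For both genes the distributions of the host groups overlapped, with the median of B-ALL hosts below the 10th percentile of PBS hosts. Elane had a median of 69.3 in B-ALL hosts (31.6 to 131) and 90.2 in PBS hosts (40.6 to 170). It was the most uneven gene within the cluster, with a coefficient of variation of 0.56 in B-ALL hosts and 0.52 in PBS hosts, against 0.27 in B-ALL hosts and 0.24 in PBS hosts for Mpo. Prtn3 had a median of 101 in B-ALL hosts (60.7 to 189) and 89.0 in PBS hosts (51.8 to 165), and the ranges of Ms4a3 overlapped as widely.

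**Figure D2:**
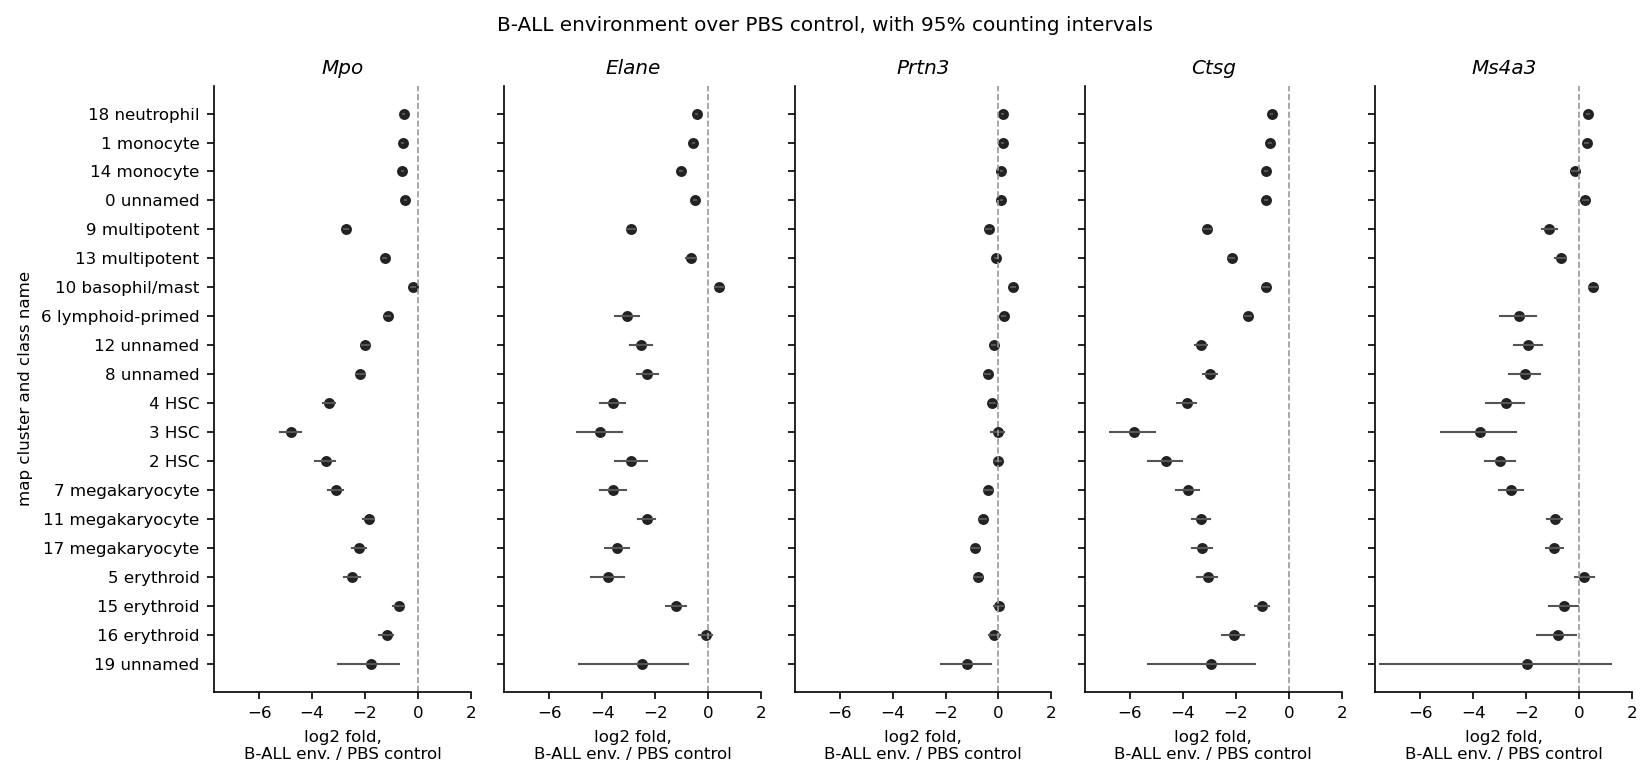
Log2 fold, B-ALL environment divided by PBS control (x, dashed line at 0) for each gene in each map cluster (y), with lines for the 95% interval of counting error. In the 4 upper rows Mpo, Elane and Ctsg lie left of 0 and Prtn3 right of it. There Mpo runs from -0.59 to -0.47 and Prtn3 from 0.11 to 0.16. Over the rows with at least 30 cells in both groups, Prtn3 runs from -0.90 (cluster 17) to 0.53 (cluster 10). Mpo runs from -4.81 (cluster 3) to -0.17 (cluster 10) over the same rows, and cluster 3 is a low-level cluster with 37 cells of the PBS control.

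The other myeloid clusters come from the same libraries and are not replicates of cluster 18, and in them Mpo, Elane and Ctsg were lower and Prtn3 higher as well. In map cluster 1, monocyte progenitor-like cells led by Ly6c2 and Hp, Mpo had 4521 CPM in B-ALL hosts and 6755 CPM in PBS hosts, and Prtn3 had 8480 CPM in B-ALL hosts and 7616 CPM in PBS hosts. In map cluster 14, monocyte progenitor-like cells led by F13a1, Ly86 and Irf8, Elane had 723 CPM in B-ALL hosts and 1468 CPM in PBS hosts (-1.02, -1.07 to -0.97), the lowest Elane fold of the 4 myeloid clusters. Ms4a3 in cluster 14 was lower too, at 189 CPM in B-ALL hosts and 210 CPM in PBS hosts. In map cluster 0, unnamed cells led by Ccl9, Cxcr2, Cpa3 and Cebpa, Ctsg had 1738 CPM in B-ALL hosts and 3140 CPM in PBS hosts. Over clusters 0, 1, 14 and 18, folds ran from -0.59 to -0.47 for Mpo, from -0.87 to -0.65 for Ctsg and from 0.11 to 0.16 for Prtn3. Over the 19 clusters with at least 30 cells in both groups, which include the low-level ones, Mpo and Ctsg were lower in 19, Elane in 18, Ms4a3 in 14 and Prtn3 in 12.

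Sorting cells by Cebpe in place of clusters kept the directions of Mpo, Ctsg and Prtn3 above 0 Cebpe UMIs. Among 168 cells of B-ALL hosts and 302 of PBS hosts with 2 to 5 Cebpe UMIs per 10000, Mpo had 5996 CPM in B-ALL hosts and 7702 CPM in PBS hosts, and Prtn3 had 10817 CPM in B-ALL hosts and 9028 CPM in PBS hosts. Ms4a3 in these cells had 1953 CPM in B-ALL hosts and 1329 CPM in PBS hosts. Elane came closest to equality along this axis, with log2 folds of -1.05 in cells without a Cebpe UMI, -0.20 below 2, -0.16 from 2 to 5, and 0.03 (-0.02 to 0.09) at 5 or more, where 31 cells of B-ALL hosts and 99 of PBS hosts remained. The 5 genes together had a log2 fold of -0.08 (-0.09 to -0.06) from 2 to 5. Along Irf8, a factor that directs cells to the monocyte branch, Elane had 1070 CPM in B-ALL hosts and 2359 CPM in PBS hosts at 5 or more Irf8 UMIs per 10000 (-1.14, -1.18 to -1.11). In cells with an Irf8 level above 0 and below 2 it had 1930 CPM in B-ALL hosts and 2288 CPM in PBS hosts (-0.25, -0.27 to -0.22).

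Lcn2 encodes lipocalin 2, a protein of the later, secondary granules, and was found in 207 of 297 cluster 18 cells of B-ALL hosts and 142 of 400 of PBS hosts. In cells with an Lcn2 UMI, Mpo had 5760 CPM in B-ALL hosts and 8293 CPM in PBS hosts, and Prtn3 had 10791 CPM in B-ALL hosts and 9318 CPM in PBS hosts. In cells without one, Mpo had 5655 CPM in B-ALL hosts and 8352 CPM in PBS hosts, and Prtn3 had 10623 CPM in B-ALL hosts and 9910 CPM in PBS hosts. All 5 genes kept their direction in both subsets.

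To count cells, each gene was given the threshold that best parts its distribution over the cells with at least 1 UMI of it. Over both groups together, the thresholds were 11.5 UMIs per 10000 for Mpo, 10.8 for Elane, 14.5 for Prtn3, 8.42 for Ctsg and 4.28 for Ms4a3. Cells above the threshold of a gene are called high, which is a range of levels and not a cell type. High cells held 85.3% to 96.1% of the UMIs of each gene in either host group. Ctsg was high in 23.5% of cells of B-ALL hosts (22.5 to 24.6) and 42.9% of those of PBS hosts (41.6 to 44.1). Mpo was high in 26.1% of cells of B-ALL hosts (24.9 to 27.2) and 42.3% of those of PBS hosts (41.0 to 43.6). Elane was high in 14.7% of cells of B-ALL hosts and 23.2% of those of PBS hosts, and Ms4a3 in 15.4% of cells of B-ALL hosts and 19.3% of those of PBS hosts. For these 4 genes fewer cells of B-ALL hosts were high. Prtn3 was high in 40.1% of cells of B-ALL hosts and 43.9% of those of PBS hosts, but 1145 cells of B-ALL hosts and 926 of PBS hosts lay within 1.5-fold of its threshold, and with thresholds halved the shares were 57.7% in B-ALL hosts and 57.5% in PBS hosts. The high cells themselves had a median Ctsg of 19.4 per 10000 in B-ALL hosts and 30.9 in PBS hosts.

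**Figure D3:**
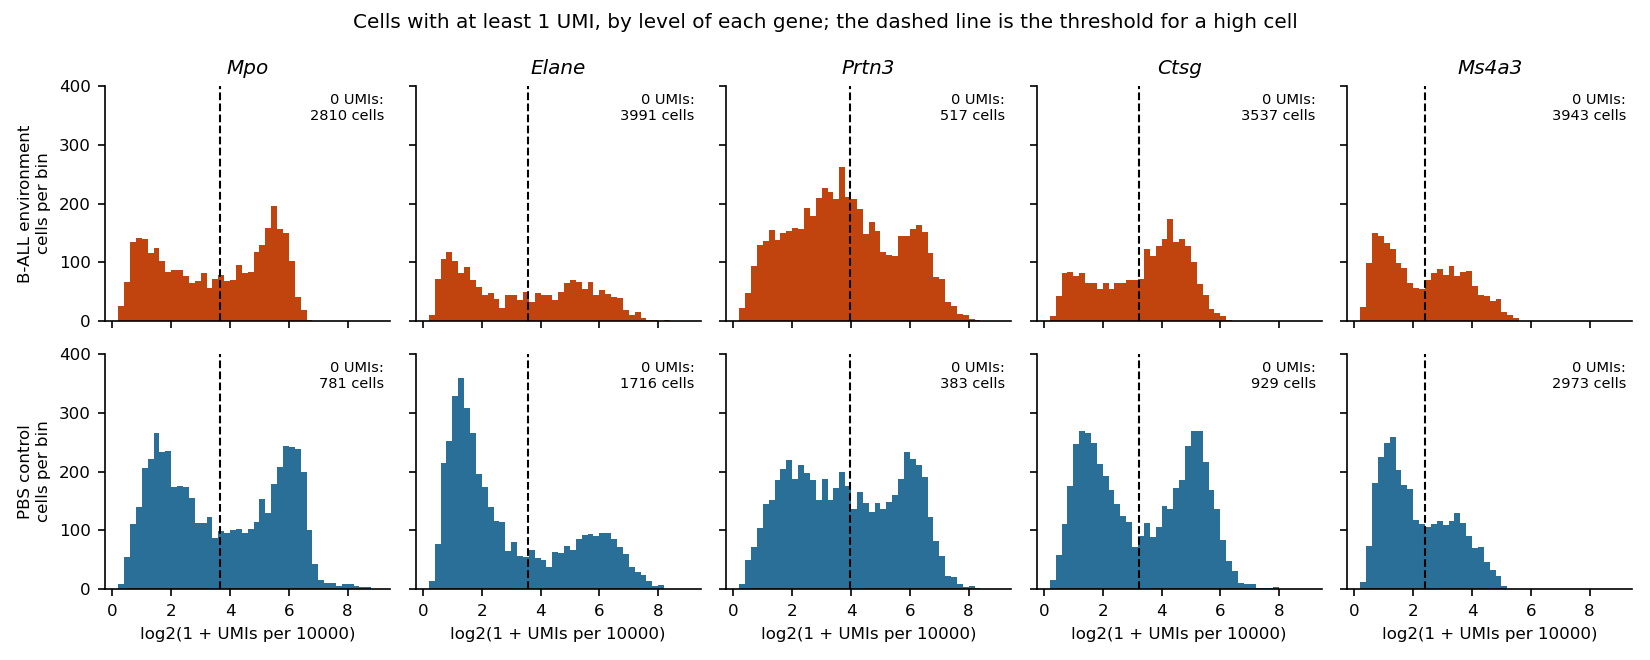
Number of cells (y) by level of each gene, log2(1 + UMIs per 10000 UMIs of the cell) (x), for cells with at least 1 UMI, B-ALL environment above and PBS control below; the dashed line is the threshold for a high cell. Mpo and Ctsg show a peak on each side of the line and Prtn3 a broad spread across it; cells without an Elane UMI number 3991 in the B-ALL environment and 1716 in the PBS control.

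At least 3 of the 5 genes were high in 1357 cells of B-ALL hosts (23.1%) and 2193 cells of PBS hosts (37.3%), a ratio of shares of 0.619 (0.584 to 0.655). All cells of cluster 18 were among them in both groups. In cluster 14 they were 64.7% of the cells of B-ALL hosts and 87.4% of those of PBS hosts. The widest gap in share was in cluster 13, with 7.88% of the cells of B-ALL hosts and 37.9% of those of PBS hosts. In HSC-like cells they were 1 of 1125 in B-ALL hosts and 4 of 330 in PBS hosts.

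The high states were nested. Of Elane-high cells, 99.5% in B-ALL hosts and 99.6% in PBS hosts were also Mpo-high, while of Mpo-high cells 56.3% in B-ALL hosts and 54.5% in PBS hosts were Elane-high. Of Prtn3-high cells, 63.5% in B-ALL hosts and 87.4% in PBS hosts were Mpo-high. Other pairs also differed between the host groups, since 58.6% of Ctsg-high cells in B-ALL hosts and 42.8% in PBS hosts were Ms4a3-high. Prtn3 alone was high in 786 cells of B-ALL hosts (13.4%) and 233 cells of PBS hosts (3.96%). Such cells made up 45.4% of cluster 13 in B-ALL hosts and 15.2% in PBS hosts, and 31.3% of lymphoid-primed-like cells in B-ALL hosts and 10.1% in PBS hosts. In HSC-like cells their shares were close, at 15.3% in B-ALL hosts and 14.5% in PBS hosts. The opposite state, Ctsg high with Prtn3 low, alone or with Mpo, was seen in 7 and 7 cells of B-ALL hosts and in 118 and 127 cells of PBS hosts.

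**Figure D4:**
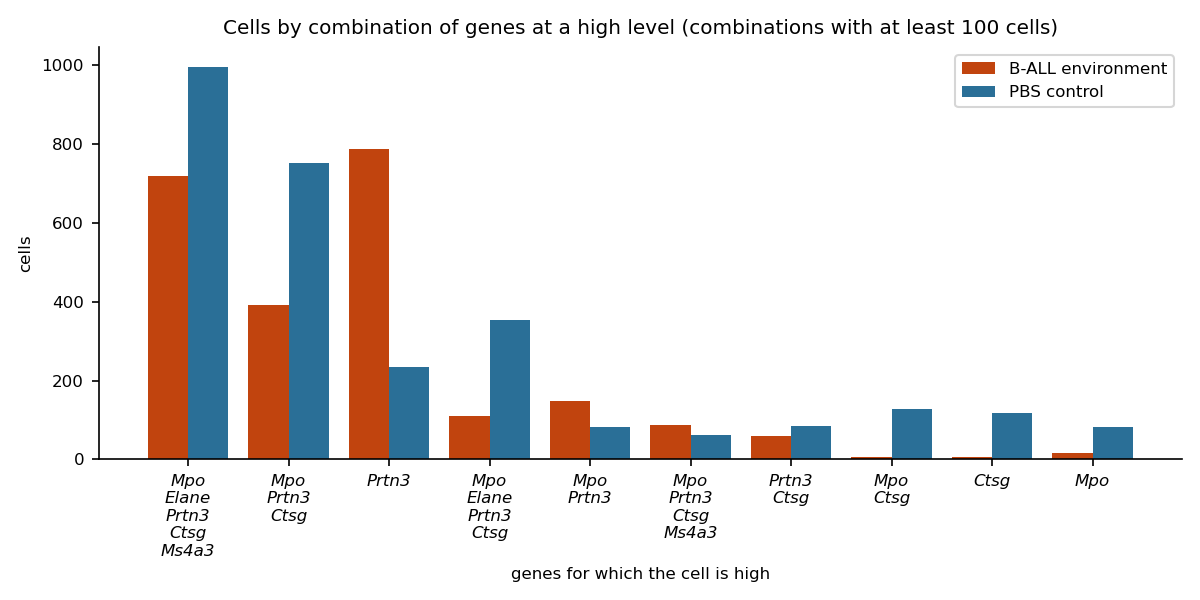
Number of cells (y) by the combination of genes for which a cell is high (x), B-ALL environment left and PBS control right in each pair, for combinations with at least 100 cells over both groups; cells high for none are not drawn. Of the combinations drawn, Prtn3 alone holds the most cells of the B-ALL environment (786) and all 5 genes together the most of the PBS control (995).

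**Figure D5:**
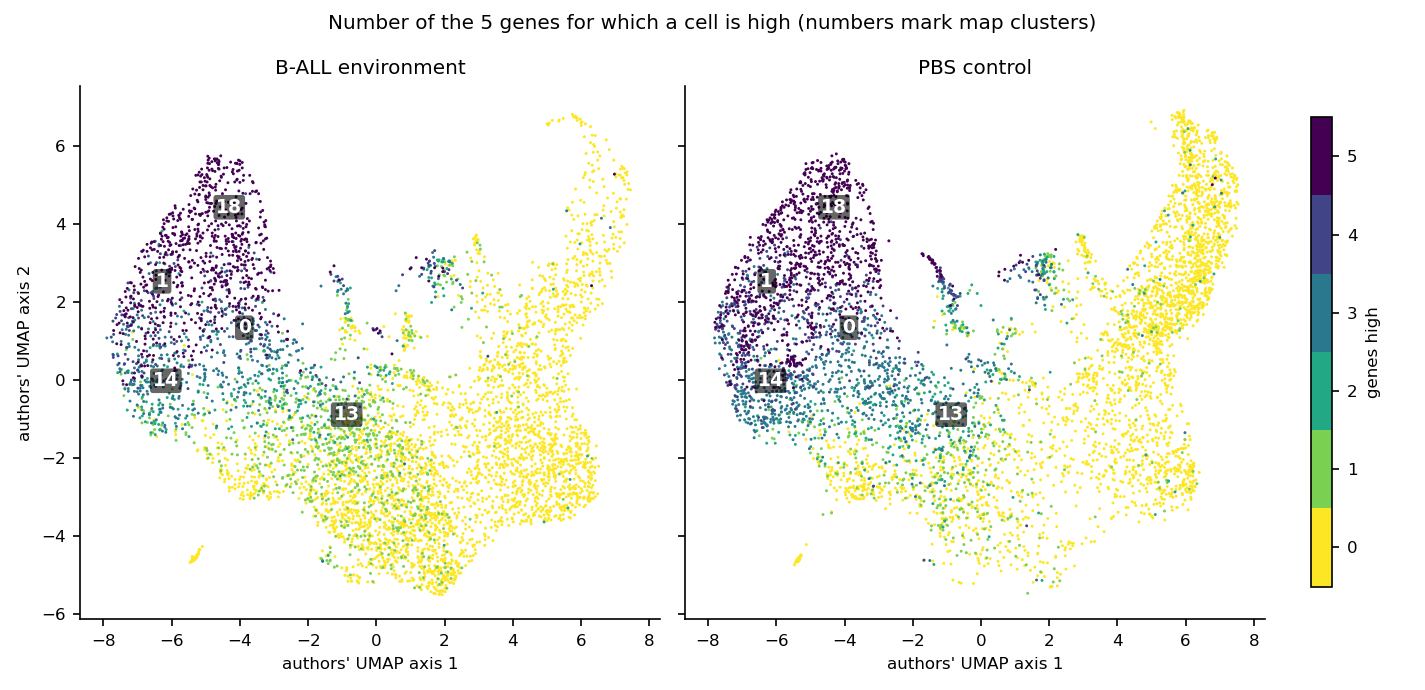
Cells on the authors' UMAP (axes without unit), B-ALL environment left and PBS control right, coloured by the number of the 5 genes for which a cell is high; numbers mark map clusters. Cells high for 5 genes fill the area of cluster 18 in both panels, and around cluster 13 cells high for 1 gene are denser in the B-ALL environment.

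Other genes of granule biology were described in cluster 18 from 8 lists, limited to genes that averaged 10 CPM or more over all cells, of which 3.42% were at least 1.5-fold lower and 3.2% at least 1.5-fold higher, with a median log2 fold of 0.01. Of 6 genes that process, inhibit or resemble the granule proteases, 1 was at least 1.5-fold lower and 0 higher (median -0.18). It was Slpi, an inhibitor of elastase and cathepsin G, with 68.9 CPM in B-ALL hosts and 238 CPM in PBS hosts (-1.79, -1.94 to -1.64). Serpinb1a, another inhibitor of these proteases, had a log2 fold of -0.55, Ctsc, the gene of cathepsin C, one of 0.28, and Cst3 one of -0.18. Of 22 other granule and lysosome genes, 1 was at least 1.5-fold higher and 0 lower (median -0.16). It was Ctsl, encoding cathepsin L, with 55.8 CPM in B-ALL hosts and 34.2 CPM in PBS hosts, and next in size were Lyz2, encoding lysozyme (-0.56), Ctsh (-0.48) and Hexa (-0.44). Of 17 genes of protein folding, granule sorting and transport, 1 was higher and 1 lower (median 0.16). Calr, a chaperone of newly made myeloperoxidase, was the higher one, with 4060 CPM in B-ALL hosts and 2651 CPM in PBS hosts (0.61, 0.59 to 0.64), and Vps45 the lower one (-0.67), followed by Rab38 (0.41) and Hax1 (0.35).

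Of 6 secondary and tertiary granule genes, 2 were at least 1.5-fold higher and 0 lower (median 0.30). Lcn2 had 94.99 CPM in B-ALL hosts and 31.8 CPM in PBS hosts (1.58, 1.35 to 1.81), and Cybb, the catalytic subunit of the phagocyte oxidase, had 35.0 CPM in B-ALL hosts and 12.7 CPM in PBS hosts (1.46, 1.10 to 1.84). Cyba, the partner subunit, had a log2 fold of -0.57 and Cd24a one of 0.47. Of the 6 oxidase genes, Cybb alone passed 1.5-fold, with Ncf1 at -0.33 and Ncf4 at -0.24 (median -0.21). Of 12 transcription factors known to act on primary granule genes, 1 was higher and 1 lower (median -0.08). The lower one was Irf8 (-0.62), and the higher one Gfi1b, at 2.85 CPM in B-ALL hosts and 1.64 CPM in PBS hosts with an interval of -0.35 to 2.01. Cebpb, which acts in granulopoiesis under stress, had 226 CPM in B-ALL hosts and 153 CPM in PBS hosts (0.56, 0.45 to 0.68). Cebpe had 225 CPM in B-ALL hosts and 312 CPM in PBS hosts (-0.47, -0.57 to -0.38).

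Of 11 genes of haem supply, which myeloperoxidase needs, 0 passed 1.5-fold in either direction (median 0.02). Alas1, the first enzyme of haem synthesis, had 520 CPM in B-ALL hosts and 738 CPM in PBS hosts (-0.50), and Tfrc (0.47), Slc25a38 (0.39) and Cpox (0.37) followed in size. Of 7 growth factor receptors, 2 were higher and 1 lower. Csf2rb, the shared receptor chain for GM-CSF and IL-3, had 108 CPM in B-ALL hosts and 41.0 CPM in PBS hosts (1.39, 1.19 to 1.60), Il6st had a log2 fold of 1.20, Kit, by which the cells were sorted, one of -0.72, and Il6ra one of -0.41.

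Likeness of pattern was measured by Pearson r of log2(CPM + 10) over 39 points, each a map cluster in a host group, among 8781 genes. The points share libraries, depth and free RNA, and r is a description. Mpo and Ctsg were each the nearest gene of the other (r = 0.99), followed for Mpo by F630028O10Rik, Hk3, Elane and Anxa3, and the same genes followed Ctsg in another order. Elane was nearest to Igsf6 (0.96), Hp (0.95), Alas1 (0.94), Anxa3 (0.93) and Ms4a3 (0.93). Ms4a3 was nearest to Fcgr2b (0.94), Elane (0.93), Igsf6 (0.93), Fcgr3 (0.91) and 1700020L24Rik (0.89). The nearest 5 of Prtn3 held none of the other members, and were Cebpd (0.96), Lbp (0.95), Prss57 (0.95), Adssl1 (0.92) and Hk3 (0.91). With its neighbour Elane, Prtn3 had r = 0.80.

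The counting of Mpo has a limit, because Gm11505 (chr11:87795784-87801144, minus strand) lies inside it and shares exon positions with it. How reads of either strand were counted is not given in the sources used here, so reads of the pair cannot be told apart with certainty. Gm11505 had 159 UMIs in B-ALL hosts and 1326 UMIs in PBS hosts, beside 126696 Mpo UMIs in B-ALL hosts and 207957 in PBS hosts. Exons of Prtn3 overlap those of Plppr3 (chr10:79860475-79874634, minus strand) only where the annotated Prtn3 span begins. Plppr3 had 77.6 CPM in B-ALL hosts and 86.0 CPM in PBS hosts. No annotated gene overlaps Elane, Ctsg or Ms4a3.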

How the data were processed

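The matrix deposited by the authors holds UMI counts per gene and cell, not normalized, from 10x Chromium 3' v3 libraries per the labels' protocols. Cell Ranger 4, Seurat 4.0.1 and mm10 are named per the submitters' processing notes. UMAP coordinates were used as the score deposited by the authors. Strand handling, the cell filter and why both groups have 5882 cells are not given in the sources used here. The cell prefix "tm" was taken to mean the B-ALL environment.

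The members and gene lists were chosen with earlier results of these data known. Cells were clustered on the deposited UMAP (Leiden, 30 neighbours, resolution 0.3, scanpy 1.11.5) and named from marker genes without the members. Summed UMIs of each cell set were brought to a common scale with TMM factors from edgeR 4.0.16 (R 4.3.3), and no count test was run, since each group is 1 sample. Fold intervals are exact conditional and shares have exact Clopper-Pearson intervals (scipy 1.17.1). Thresholds for high cells follow Otsu (scikit-image 0.26.0). Scrublet marked 3 cells in B-ALL hosts and 6 in PBS hosts, which is too few to rely on, and none was removed. Summing and scaling were tested on simulated data. Named list genes are up to 4 per list with the largest absolute log2 fold in neutrophil progenitor-like cells. Alternatives included other scalings, cell filters, class boundaries and thresholds. Lpo, Epx and Cfd were not analysed here.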

Additional observations from a re-analysis of the deposited data

How the results depend on the processing

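The summed level over all cells, a log2 fold of -0.58, was -0.54 with library totals and -0.56 without the highest 5% of doublet scores. It was -0.32 with the map cluster shares of PBS hosts and -0.46 without Mpo. Chosen after seeing the data, it was -0.55 without map clusters 8 and 9 and -0.54 with the late erythroid level subtracted. In neutrophil progenitor-like cells the fold of -0.25 was -0.26 with each group clustered alone, -0.56 with centred values, where the class came from different clusters in each group, -0.23 with finer map clusters and -0.17 without Mpo. Chosen after seeing the data, it was -0.055 in cells with at least 2 Cebpe UMIs per 10000 and -0.24 with the late erythroid level subtracted. The ratio of shares of cells high in at least 3 genes, 0.619, was 0.541 with thresholds doubled and 0.722 with all 5 high. Direction reversed for Prtn3 over all cells with PBS map cluster shares (0.13) and for the Prtn3-high ratio with thresholds halved (1.00). It also reversed for Prtn3 (-0.048) and Ms4a3 (-0.15) in neutrophil progenitor-like cells with centred values. Ms4a3 over all cells was -0.02 with an interval that included 0. It was above 0 in 4 of 8 alternatives and reached 0.26 with PBS map cluster shares. The cause was not tested. No summed value changed sign under the alternatives run. No paired analysis was possible because the cells carry no replicate number, and for that reason leaving out replicates was not run. Mpo was left out as planned, although Prtn3 has more UMIs. Counts limit the members little in the myeloid clusters, whereas in the low-level clusters free RNA limits what can be read.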

Other observations

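Map cluster 9, led by Gm11505 and other non-coding genes, had the widest Mpo gap outside the low-level clusters. Mpo there had 1849 CPM in 81 cells of B-ALL hosts and 12094 CPM in 137 cells of PBS hosts. Ctsg there had 696 CPM in B-ALL hosts and 5862 CPM in PBS hosts, while Prtn3 had 2486 CPM in B-ALL hosts and 3225 CPM in PBS hosts. Median depth was 10323 UMIs per cell in B-ALL hosts and 4347 in PBS hosts, beside 10458 and 10189 over all cells. Only the cells of PBS hosts were thus shallow. With values centred within each host group, the cluster led by Gm11505 held 0 cells of B-ALL hosts and 132 of PBS hosts. Whether map cluster 9 holds the same kind of cell in both groups was not tested, and its gap is not read as a difference within a cell type.

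Family neighbours of the members were followed as well. Prss57, a serine protease gene 83514 bases from Prtn3, had 282 CPM in neutrophil progenitor-like cells of B-ALL hosts and 317 CPM in those of PBS hosts (-0.17, -0.26 to -0.08). Mcpt8, a basophil protease gene on the chromosome of Ctsg, had 23.4 CPM over all cells of B-ALL hosts and 37.6 CPM over those of PBS hosts. Ms4a6c, a relative of Ms4a3, had 149 CPM over all cells of B-ALL hosts and 215 CPM over those of PBS hosts, but 94.4 CPM in neutrophil progenitor-like cells of B-ALL hosts and 71.9 CPM in those of PBS hosts.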
